A study of Mus musculus with 3 samples.

Results

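The mouse mitochondrial genome was read through 20 genes of 20937 listed in a table of raw RNAseq counts, namely every row whose symbol starts with mt-. They comprised both rRNA genes, the 13 mRNA genes and 5 tRNA genes, mt-Tq, mt-Tw, mt-Ts1, mt-Tt and mt-Tp, of 22 tRNA genes in the annotation. The other tRNA genes have no row in the table, whose lowest count is 1, so the 5 are those with counts in every library. By coding strand, 16 genes were heavy-strand encoded, which is the plus strand of the annotation, and 4 were light-strand encoded, namely mt-Nd6, mt-Tq, mt-Ts1 and mt-Tp. The mRNA genes encode subunits of the respiratory complexes I, III and IV and of the ATP synthase, complex V.

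RNA came from the whole incisor enamel organ, the epithelium that holds the enamel-forming ameloblasts, of mice at 4 weeks of age (P28). Stim1 encodes a sensor of calcium in the endoplasmic reticulum, and the study asked what its loss does in ameloblasts. The Stim1 cKO library came from a Stim1 fl/fl Cre+ animal, the Stim1 HT library from a Stim1 fl/wt Cre+ animal and the Stim1 Ctrl library from a Stim1 fl/fl Cre- animal. These 3 libraries are shortened below to cKO, HT and Ctrl. All 3 thus carried at least one floxed allele, and the Cre, AmelX-iCre, is driven in ameloblasts, while the RNA came from all cells of the organ. The study's methods state that only male mice were used and give n = 1 per genotype. With no replicates, the differences below have no replicate check within these libraries, and the intervals cover counting error only. By RT-qPCR on several younger mice per genotype, the study reported mt-Nd1 and mt-Atp6 as significantly upregulated in Stim1 cKO. That was in ameloblasts isolated from incisors and from molars, with no clear difference between HT and Ctrl.

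Mitochondrial DNA is transcribed from both strands into long RNAs that span nearly the whole genome. These are cut apart at the tRNA genes that lie between most of the other genes. The rRNAs join the mitochondrial ribosome, the tRNAs decode, and most of the mRNAs receive short poly(A) tails. The levels of single mitochondrial RNAs therefore depend on processing and stability as well as on transcription. Tissues rich in mitochondria, such as muscle and retina, are known for high levels of these RNAs.

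Several sequences define how the counts can be read. They were taken from GENCODE M21 transcripts on GRCm38 and are written 5′ to 3′ on the strand of the gene. The 5 tRNA genes are shown first because each was shorter than 1 sequencing read, and capitals mark the bases shared with a neighbouring gene. They lie on chromosome M, mt-Tq from 3772 to 3842 (minus strand), mt-Tw from 4950 to 5016 (plus), mt-Ts1 from 6870 to 6938 (minus), mt-Tt from 15289 to 15355 (plus) and mt-Tp from 15356 to 15422 (minus).
mt-Tq: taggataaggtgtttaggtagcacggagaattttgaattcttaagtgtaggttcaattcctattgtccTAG
mt-Tw: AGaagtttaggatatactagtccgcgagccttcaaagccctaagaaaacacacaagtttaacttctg
mt-Ts1: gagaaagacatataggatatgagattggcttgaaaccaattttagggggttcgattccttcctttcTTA
mt-Tt: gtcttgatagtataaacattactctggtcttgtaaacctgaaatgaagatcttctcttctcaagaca
mt-Tp: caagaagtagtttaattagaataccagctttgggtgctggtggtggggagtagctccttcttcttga
A read that holds one of these genes whole also holds bases of its neighbours, unless the RNA ends at the tRNA. How such reads were assigned is not given in the sources used here.

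The stretch of chromosome M from 7917 to 7979 is shown because 2 mRNA genes share bases there, and capitals mark the 43 bases that belong both to mt-Atp8 and to mt-Atp6.
mt-Atp8/mt-Atp6: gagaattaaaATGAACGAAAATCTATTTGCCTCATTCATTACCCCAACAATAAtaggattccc

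Nuclear copies of mitochondrial DNA are shown because reads from an identical stretch fit both places. Positions are counted from 1 at the 5′ end of the mitochondrial gene. Gm28438 on chromosome 1 differs from mt-Nd3 at T3C among 345 aligned bases, and Gm29216 on chromosome 1 differs from mt-Co1 at A1066T among 483 aligned bases. Capitals mark that base, and the mitochondrial stretches lie on chromosome M from 9459 to 9481 for mt-Nd3 and from 6390 to 6413 for mt-Co1.
mt-Nd3: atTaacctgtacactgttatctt
Gm28438: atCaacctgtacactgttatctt
mt-Co1: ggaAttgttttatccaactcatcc
Gm29216: ggaTttgttttatccaactcatcc
The next stretch, bases 1121 to 1180 of mt-Co1 (chromosome M from 6448 to 6507), sets the gene beside the mt-Co1 copies with the most counts, Gm13340 and Gm29216. Capitals mark the 3 positions at which Gm13340 on chromosome 2 differs, while Gm29216 has 0 differences in these 60 bases.
mt-Co1: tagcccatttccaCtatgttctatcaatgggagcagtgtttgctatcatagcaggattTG
Gm29216: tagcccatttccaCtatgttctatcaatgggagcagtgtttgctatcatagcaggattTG
Gm13340: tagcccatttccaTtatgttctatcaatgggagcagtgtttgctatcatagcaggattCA

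Total counts were 21496136 in cKO, 20216507 in HT and 28265960 in Ctrl. Levels are given as TMM-scaled CPM, that is, counts relative to library size after edgeR scaling between libraries. Stim1 itself was at 72.8 CPM in cKO, 129 CPM in HT and 186 CPM in Ctrl (edgeR log2 fold change -1.11, adjusted p 0.106). The libraries differed in markers of cell types. The summed level of 7 ameloblast genes was 4457 CPM in cKO against 31544 in HT and 23273 in Ctrl, with 4 of them below both controls and 2 above both. Amelx and Ambn made up most of the sum. The 2 above were Odam (694 CPM in cKO, 196 in HT and 75.1 in Ctrl) and Amtn (150, 145 and 72.4 CPM). For 8 skeletal muscle genes it was 4456 against 17140.5 and 20892 CPM, with 7 below both controls and 1 above. Of all genes tested, 42.1% lay below both controls and 43.6% above both. Of the photoreceptor markers, Gnat1 (rod transducin) had 4294 counts in cKO against 2 and 5 counts, and Sag (arrestin) had 2628 against 23 and 12 counts. For 5 erythroid genes the summed level was 1041 against 2231 and 1480 CPM, with 4 below both controls and 0 above both. For 6 fibroblast and odontoblast genes it was 36254 against 49437 and 76436 CPM, with 5 below both controls and 1 above. The gene above was Dspp, at 1264 CPM in cKO, 792 in HT and 792 in Ctrl. The part of these differences in the mitochondrial values was not tested. In bulk tissue, a change in the number of cells of a type and a change in RNA per cell cannot be told apart.

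Mitochondrially encoded counts took a larger share of the cKO library than of either control. They were 1117073 counts or 5.20% of the total in cKO (95% Wilson interval 5.19 to 5.21%). They were 521777 counts or 2.58% in HT (2.57 to 2.59%) and 795993 counts or 2.82% in Ctrl (2.81 to 2.82%). The cKO share thus lay further from both controls than the controls lay from each other. The intervals of HT and Ctrl did not overlap either, so counting error does not mark cKO off from the controls. With no replicates, the spread between libraries of the same genotype is not known.

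The classes did not contribute alike. mRNA rows held 4.53% of all counts in cKO, 2.47% in HT and 2.73% in Ctrl. The 2 rRNA rows held 0.664% of all counts in cKO, 0.114% in HT and 0.0830% in Ctrl. Within the mitochondrial counts, rRNA made up 12.8% in cKO (12.7 to 12.8%), 4.43% in HT (4.37 to 4.48%) and 2.95% in Ctrl (2.91 to 2.99%). These class shares are taken within a library and do not depend on scaling between libraries.

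tRNA rows were a minor class, with 593 counts in cKO and 64 counts in each control. That was 0.0531% of the mitochondrial counts in cKO (0.0490 to 0.0575%), 0.0123% in HT (0.00961 to 0.0157%) and 0.00804% in Ctrl (0.00630 to 0.0103%). mRNA made up the rest, 87.2% in cKO, 95.6% in HT and 97.04% in Ctrl. The cKO library therefore had the highest share of mitochondrial counts in the rRNA rows and in the 5 tRNA rows listed, while its mRNA share was the lowest of the 3.

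**Figure D1:**
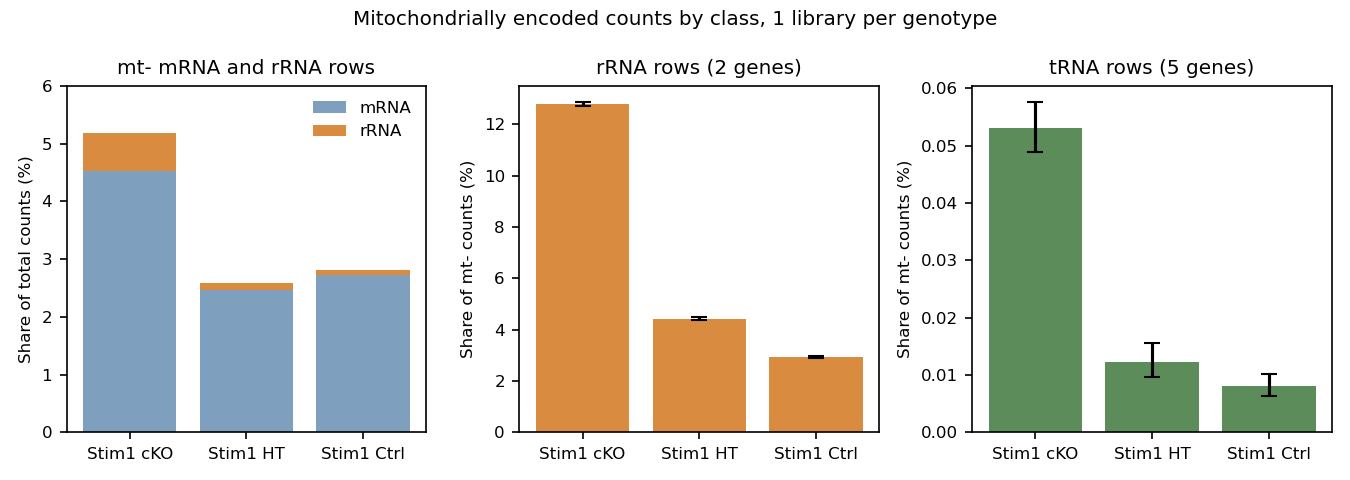
Left, bars stack the share of total counts (%) in mRNA and rRNA rows in each of the 3 libraries. Middle and right, bars give the rRNA and tRNA shares of mitochondrial counts (%) with 95% Wilson intervals, and the rRNA share reaches 12.8% in cKO against 4.43% and 2.95% in the controls.

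Gene by gene, levels spanned several orders of magnitude, as the plot of CPM in genome order shows. The cKO level exceeded both controls at 17 of 20 genes, against 43.6% of all 18702 genes tested. It exceeded both more than 2-fold at 14 genes, against 19.1% of all genes. At 0 of 20 genes was it more than 2-fold below both controls, against 8.23% of all genes, and it was below both at mt-Co1 alone, against 42.1% of all genes. mt-Nd5 and mt-Nd4l lay between the controls. Of the genes above both, mt-Tq, mt-Ts1 and mt-Tt met the minimum count for testing in cKO alone. Their place above the controls is thus partly set by that minimum. Scaled by library size only, mt-Co1 (1.15% of total counts in cKO, 1.02% in HT and 1.13% in Ctrl) and mt-Nd5 (0.396%, 0.243% and 0.348%) were above both. HT and Ctrl differed more than 2-fold in 2 of the 20 genes, mt-Ts1 and mt-Nd4l, against 13.5% of all genes. For mt-Ts1 this rested on 4 counts in HT and 2 in Ctrl (fold 2.61, exact interval 0.374 to 28.9).

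**Figure D2:**
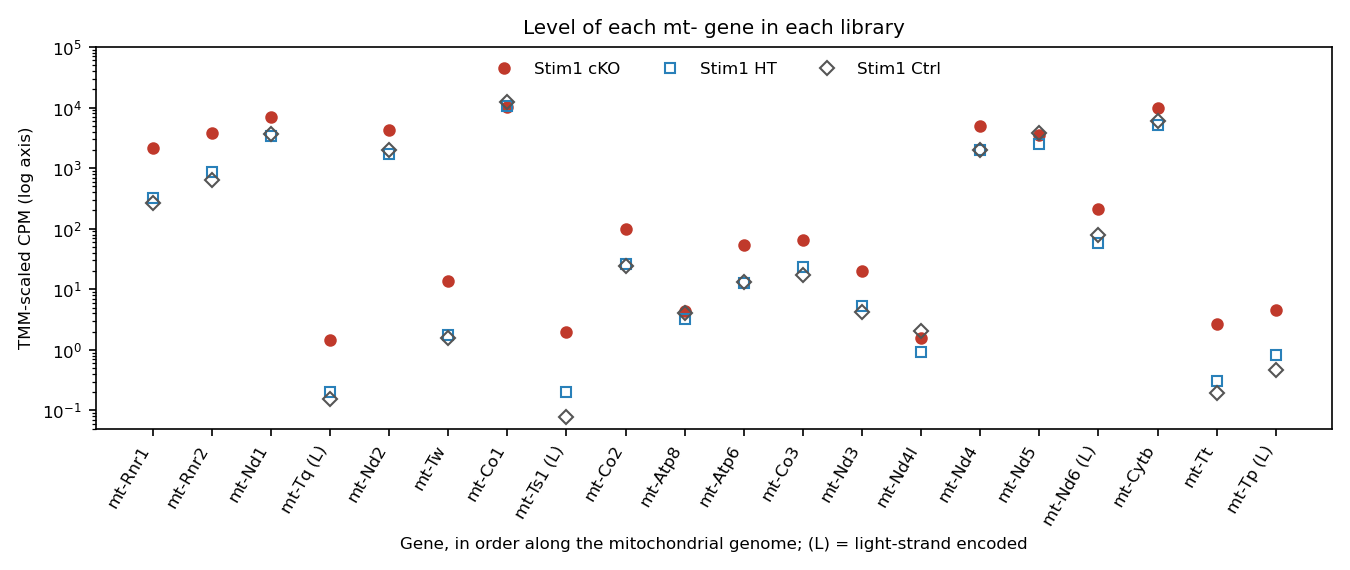
Points give the TMM-scaled CPM (log axis) of each of the 20 genes in each library, in order along the mitochondrial genome, with (L) for light-strand encoded genes. Filled circles (cKO) lie above both open symbols for 17 genes, and mt-Co1 is the gene at which they lie below both, which it does not with scaling by library size only.

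Against the grouped controls, the quasi-likelihood test of edgeR, with p adjusted by Benjamini-Hochberg, called 0 of 20 genes at an adjusted p under 0.01 and a fold change over 2. By that rule 14 of 18702 genes (0.0749%) were called higher and 0 (0.0%) lower. At an unadjusted p under 0.05, edgeR had 14 of the 20 genes higher (18.5% of all genes) and 0 lower (13.4%). At an adjusted p under 0.05 with a fold change over 2, it had 10 higher (6.8%) and 0 lower (2.88%). DESeq2, the tool of the study, called 10 of 20 higher at the thresholds of 0.01 and 2, against 5.2% of its 20937 genes, and 0 lower, against 4.34%. Those 10 were mt-Rnr1, mt-Rnr2, mt-Tw, mt-Nd2, mt-Nd3, mt-Nd4, mt-Nd6, mt-Co2, mt-Co3 and mt-Atp6. Both tests take their spread from HT and Ctrl, which are not of one genotype. The median edgeR log2 fold change was 1.82 over the 20 genes and -0.01 over all genes. By class it was 2.59 for rRNA, 1.20 for mRNA and 3.06 for tRNA.

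The rRNA genes, which encode the small and large ribosomal subunit RNAs, stood well above both controls. mt-Rnr1 (12S rRNA, chromosome M from 70 to 1024) had 51616 counts in cKO, 6362 in HT and 6888 in Ctrl, or 2132, 323 and 268 CPM. mt-Rnr2 (16S rRNA, chromosome M from 1094 to 2675) had 91211, 16740 and 16585 counts, or 3768, 850 and 644 CPM. Both genes were high in cKO, and the controls lay within 1.32-fold of each other.

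The log2 ratio of mt-Rnr1 in cKO was 2.72 to HT and 2.99 to Ctrl, and that of mt-Rnr2 was 2.15 and 2.55. In edgeR the log2 fold change was 2.85 for mt-Rnr1 (adjusted p 0.0201) and 2.33 for mt-Rnr2 (adjusted p 0.0323). DESeq2 gave 2.82 ± 0.309 (SE) for mt-Rnr1 with an adjusted p of 1.4e-17. Relative to the mRNAs, cKO had 14.7 rRNA counts per 100 mRNA counts, HT 4.63 and Ctrl 3.04. The rRNAs were thus higher beside the mRNAs of the same library and not only beside the total.

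The 2 rRNAs did not keep the same ratio. There were 1.77 counts of mt-Rnr2 per count of mt-Rnr1 in cKO (1.75 to 1.79), 2.63 in HT (2.56 to 2.71) and 2.41 in Ctrl (2.34 to 2.48). Set against mt-Nd1, the mRNA gene next downstream, there were 0.541 counts of mt-Rnr2 per count of mt-Nd1 in cKO, 0.254 in HT and 0.176 in Ctrl. cKO was the lowest library in the first ratio and the highest in the second.

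Library preparation in the study's methods selected poly(A) RNA, while the labels name another kit, and rRNA and tRNA values can move with how well that selection worked. Of 15 nuclear RNAs that mostly lack a poly(A) tail, 9 were listed and 5 could be tested. The summed level of the 9 was 11.2 CPM in cKO, 5.74 in HT and 4.35 in Ctrl, and all 5 tested lay above both controls, against 43.6% of all genes. Rmrp and Scarna2 met the minimum count for testing in cKO alone, so that count of 5 is partly set by the minimum. edgeR and DESeq2 called 0 of the 5, against 0.0749% and 5.2% of all genes called higher. Rn7sk had 131, 74 and 65 counts and Rmrp 46, 6 and 12 counts, in the same order of libraries. The 4 nuclear long noncoding RNAs Malat1, Neat1, Meg3 and Kcnq1ot1 summed to 10346, 1880 and 2116 CPM, each more than 2-fold above both controls, against 19.1% of all genes. Malat1 had 145091 counts in cKO, 20277 in HT and 20023 in Ctrl (edgeR log2 fold change 2.73, adjusted p 0.0269). These values moved with the rRNA and tRNA rows, and their part in them was not tested.

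tRNA rows rested on few counts. mt-Tw, the tryptophan tRNA and the most counted of the 5, had 336 counts in cKO, 34 in HT and 41 in Ctrl. Its log2 ratio was 3.01 to HT and 3.12 to Ctrl, with an edgeR log2 fold change of 3.06 (adjusted p 0.0273). It overlaps mt-Nd2 by 2 bases, and there were 3.26 counts of mt-Tw per 1000 of mt-Nd2 in cKO (2.93 to 3.63), 1.01 in HT (0.719 to 1.41) and 0.801 in Ctrl (0.590 to 1.09). mt-Tw was thus higher in cKO relative to its neighbour as well.

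The other 4 tRNAs were lower in counts. mt-Tp (proline) had 109 counts in cKO, 16 in HT and 12 in Ctrl. mt-Tt (threonine) had 65, 6 and 5 counts. mt-Ts1 (serine) had 48, 4 and 2, and mt-Tq (glutamine) 35, 4 and 4. For all 5 tRNAs the cKO count exceeded both controls, with edgeR log2 fold changes of 2.82 to 3.82 and adjusted p of 0.0273 to 0.0608.

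Precision for these rows was low, as their counting intervals show. For mt-Tq the fold of cKO over HT was 7.12 (exact interval 2.55 to 27.6), and for mt-Tt it was 8.82 (3.84 to 24.9). For mt-Ts1 the ratio to Ctrl, which had 2 counts, was 25.5 (6.69 to 217). DESeq2 called only mt-Tw of the 5, at 3.04 ± 0.710 (SE), and its adjusted p for mt-Tq was not available.

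mRNA genes are ordered by the complex their proteins join, beginning with complex I, which takes electrons from NADH. mt-Nd1 had 168461 counts in cKO, 65838 in HT and 93972 in Ctrl, or 6959, 3342 and 3652 CPM. mt-Nd2 had 102951, 33816 and 51196 counts, or 4253, 1717 and 1989 CPM. mt-Nd4 had 121464, 38956 and 51471 counts, or 5018, 1978 and 2000.2 CPM. All 3 were high in cKO, with log2 ratios of 0.93 to 1.34 to either control.

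The edgeR log2 fold change was 1.34 for mt-Nd4 (adjusted p 0.0879), 1.20 for mt-Nd2 (adjusted p 0.110) and 0.99 for mt-Nd1 (adjusted p 0.170). mt-Nd3 had far fewer counts, 494 in cKO, 105 in HT and 108 in Ctrl, with an edgeR log2 fold change of 2.10 (adjusted p 0.0401). mt-Nd4l, which overlaps mt-Nd4 by 7 bases, had 38, 18 and 52 counts. Its value in cKO lay between those of the controls, which themselves differed by -1.14 on the log2 scale (HT to Ctrl).

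mt-Nd5 also lay between the controls, despite a high count. It had 85106 counts in cKO, 49117 in HT and 98270 in Ctrl, or 3516, 2493.5 and 3819 CPM. Its log2 ratio was 0.50 to HT and -0.12 to Ctrl. Beside mt-Cytb it was highest in Ctrl and lowest in cKO, at 0.638 counts per count of mt-Cytb in Ctrl, 0.478 in HT and 0.358 in cKO. The HT and Ctrl libraries differed at mt-Nd5 by -0.61 on the log2 scale, more than at any other gene here with over 1000 counts in each library.

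Complex III contains one mitochondrially encoded protein, cytochrome b. mt-Cytb had 237656 counts in cKO, 102657 in HT and 154034 in Ctrl, or 9818, 5212 and 5986 CPM. It was the second most counted gene in every library, at 21.3%, 19.7% and 19.4% of mitochondrial counts. Its share of the mitochondrial counts was thus nearly level while its CPM was 1.88-fold and 1.64-fold that of the controls (edgeR log2 fold change 0.81, adjusted p 0.261).

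Complex IV, cytochrome c oxidase, held genes whose ratios differed widely. mt-Co1, which encodes its catalytic subunit, had 247112 counts in cKO, 205663 in HT and 319867 in Ctrl, or 10208.5, 10441 and 12430.1 CPM. The cKO level was the lowest of the 3, with log2 ratios of -0.03 and -0.28, and the edgeR log2 fold change was -0.16 (adjusted p 0.834). With scaling by library size only it was 0.10, so its sign rests on the scaling. As a share of mitochondrial counts mt-Co1 made up 22.1% in cKO against 39.4% and 40.2%, and this share does not depend on scaling.

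mt-Co2 and mt-Co3, by contrast, were several-fold higher in cKO. mt-Co2 had 2370 counts against 519 and 613, with an edgeR log2 fold change of 1.96 (adjusted p 0.0189). mt-Co3 had 1582 counts against 464 and 446, with an edgeR log2 fold change of 1.68 (adjusted p 0.0318). There was 1.04 count of mt-Co1 per count of mt-Cytb in cKO, 2.003 in HT and 2.08 in Ctrl. The controls differed little in this ratio and cKO stood apart.

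**Figure D3:**
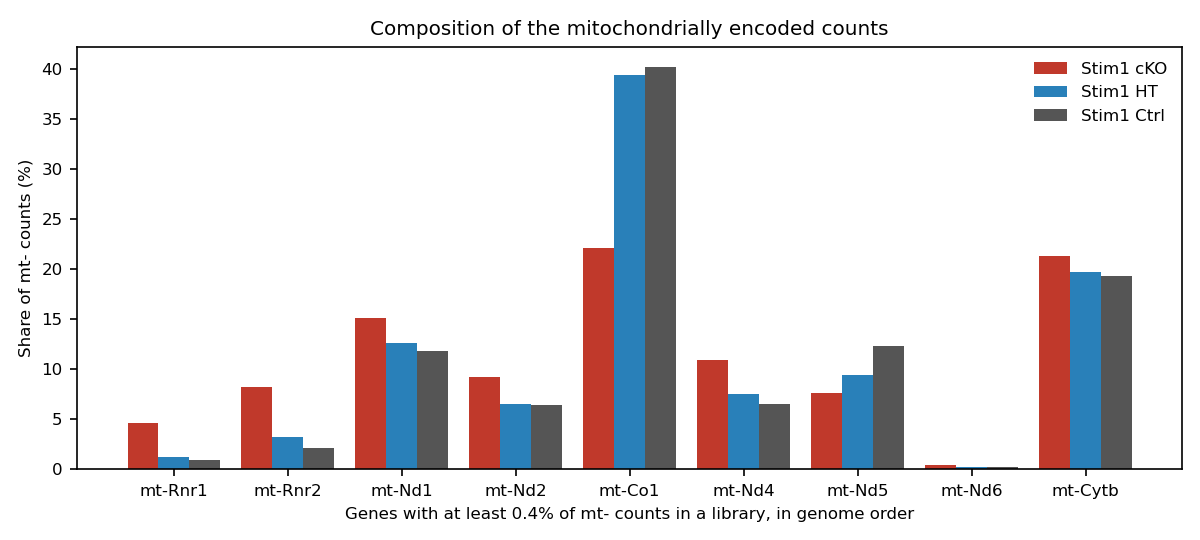
Bars give each gene's share of all mitochondrial counts (%) in the 3 libraries, for genes with at least 0.4% in a library, in genome order. mt-Co1 makes up 22.1% in cKO and 39.4% and 40.2% in the controls, while mt-Rnr1, mt-Rnr2, mt-Nd1, mt-Nd2 and mt-Nd4 make up more in cKO.

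Complex V is represented by mt-Atp8 and mt-Atp6, which share the 43 bases printed above. mt-Atp6 had 1286 counts in cKO, 249 in HT and 333 in Ctrl, with an edgeR log2 fold change of 2.05 (adjusted p 0.0187). mt-Atp8 had 108, 63 and 104 counts, with an edgeR log2 fold change of 0.30 (adjusted p 0.715). There were 0.0840 counts of mt-Atp8 per count of mt-Atp6 in cKO, 0.253 in HT and 0.312 in Ctrl. So 2 genes that overlap and lie on the same strand had different ratios between the libraries. Of the read-length windows inside mt-Atp6, 99.5% had an exact nuclear copy, and its copy Gm10925 had 1559 counts in cKO. The part of read assignment to nuclear copies in these ratios was not tested.

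By complex, the 7 complex I genes took 43.3% of mitochondrial counts in cKO, 36.2% in HT and 37.3% in Ctrl. The 3 complex IV genes took 22.5%, 39.6% and 40.3%, nearly all of it mt-Co1, and complex V took 0.125%, 0.0598% and 0.0549%. Several of these genes have nuclear copies that make their levels uncertain, among them both complex V genes, as set out below.

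**Figure D4:**
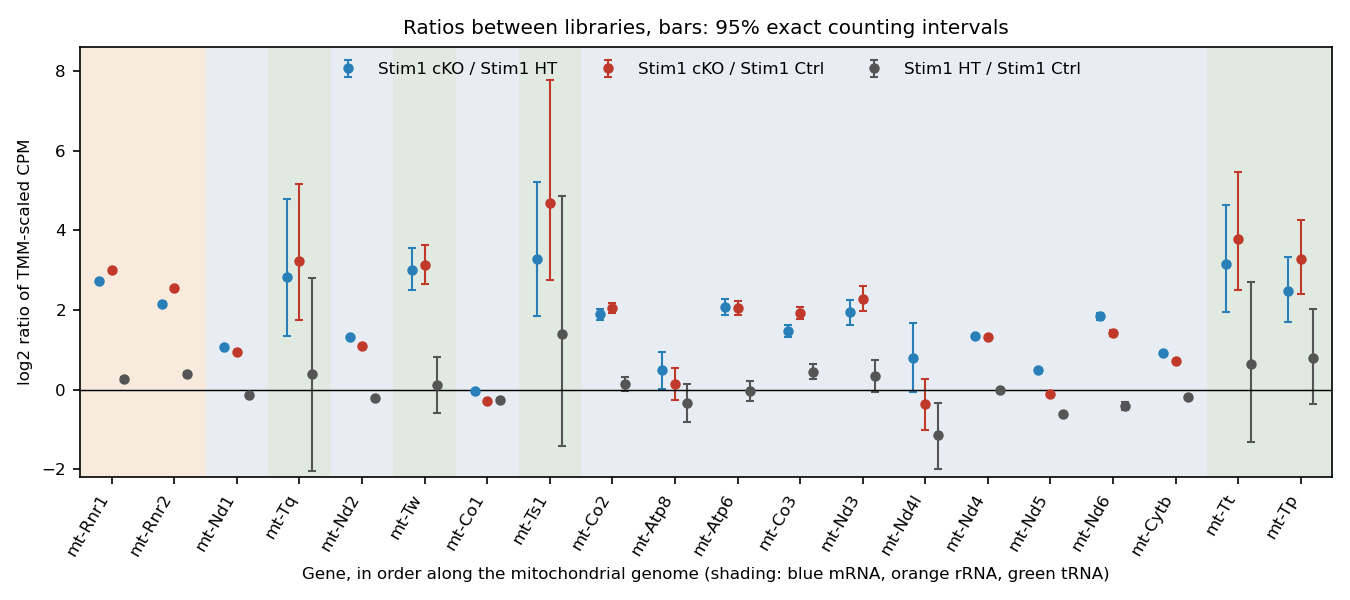
Points give log2 ratios of TMM-scaled CPM for the 3 pairs of libraries at each gene in genome order, with 95% exact counting intervals and shading by class (blue mRNA, orange rRNA, green tRNA). Ratios of cKO to the controls are 2.15 to 2.99 for rRNA and 2.47 to 4.67 for tRNA, and -0.36 to 0.78 for mt-Co1, mt-Atp8, mt-Nd5 and mt-Nd4l.

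By coding strand, heavy-strand encoded genes held 99.5% of mitochondrial counts in cKO, 99.8% in HT and 99.7% in Ctrl. The light-strand encoded share was 0.467% in cKO (0.455 to 0.480%), 0.224% in HT (0.212 to 0.237%) and 0.252% in Ctrl (0.241 to 0.264%). All 4 light-strand genes exceeded both controls more than 2-fold in cKO, as did 10 of the 16 heavy-strand genes, against 19.1% of all genes. Strand and class overlap here, since 3 of the 4 light-strand genes are tRNA genes. By class, 5 of 5 tRNA, 2 of 2 rRNA and 7 of 13 mRNA genes did so. Of the tRNA genes, mt-Tq, mt-Ts1 and mt-Tt met the minimum count for testing in cKO alone. Of the light-strand counts nearly all were mt-Nd6.

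mt-Nd6 is the one light-strand mRNA gene, on chromosome M from 13552 to 14070, and encodes a complex I subunit. It had 5025 counts in cKO, 1146 in HT and 1990 in Ctrl, or 208, 58.2 and 77.3 CPM. The edgeR log2 fold change was 1.61 (adjusted p 0.0374). Its neighbour mt-Nd5, on the other strand and overlapping it (14 bases shared), lay between the controls. There were 5.90 counts of mt-Nd6 per 100 of mt-Nd5 in cKO, 2.33 in HT and 2.03 in Ctrl.

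mt-Nd6 also stands apart in base makeup, with 28.1% G and 5.97% C, whereas the heavy-strand mRNA genes hold 5.88 to 16.1% G. Because the sources used here do not give whether strand was used in counting, reads of mt-Nd6 and of RNA antisense to it cannot be told apart. The same holds for mt-Tq, mt-Ts1 and mt-Tp. Within the tRNA rows the light-strand share was 32.4% in cKO, 37.5% in HT and 28.1% in Ctrl, so among tRNAs cKO lay between the controls.

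Levels per kilobase allow the genes to be ranked within a library. In cKO the order began with mt-Cytb (8582 CPM per kb), mt-Nd1 (7272), mt-Co1 (6607), mt-Nd2 (4097) and mt-Nd4 (3641). In HT it began with mt-Co1 (6758 CPM per kb), mt-Cytb (4556), mt-Nd1 (3493) and mt-Nd2 (1654), and in Ctrl with mt-Co1 (8045), mt-Cytb (5232), mt-Nd1 (3816) and mt-Nd5 (2094). mt-Co1 thus led in both controls but not in cKO. mt-Rnr2 was at 2382 CPM per kb in cKO and at 537 and 407 in the controls, above mt-Nd5 in cKO and below it in both controls.

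Far below these lay 5 mRNA genes, mt-Co2, mt-Atp6, mt-Co3, mt-Nd3 and mt-Nd4l, at 5.29 to 143 CPM per kb in cKO, although they lie on the same strand as mt-Co1 and mt-Cytb. The same 5 genes have nearly complete nuclear copies. Of the windows as long as a read that lie inside the gene, 97.3% to 99.8% had an exact copy among nuclear transcripts of the annotation, against 59.9% for mt-Nd4, 26.5% for mt-Co1 and 0.438% for mt-Nd2. The other mRNA genes had 0 copied windows of that kind. Of those, mt-Nd6 was at 399.98 CPM per kb in cKO and mt-Nd1, mt-Nd5 and mt-Cytb at 1928 to 8582. The last of them, mt-Atp8, at 21.9 CPM per kb, lies between mt-Co2 and mt-Atp6. Their copies Gm28661 (24614885 to 24615565) and Gm10925 (24613974 to 24614651) flank a stretch of chromosome 1 that was not searched. The 0 for mt-Atp8 thus does not show that it lacks a copy, and 21.1% of windows overlapping it had one.

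In all 3 libraries these 5 genes and mt-Atp8 were the mRNA genes with the lowest levels per kb. The reads of an identical stretch can be split, dropped or given to either place, and how they were treated is not given in the sources used here. The levels of mt-Co2, mt-Atp6, mt-Co3, mt-Nd3, mt-Nd4l and mt-Nd4, and of their copies, are therefore uncertain. So is the level of mt-Atp8, and the copied windows of mt-Co1 carry the same limit.

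Nearly all counts of nuclear copies lay in 2 blocks. One on chromosome 1 (GRCm38, 24611535 to 24616197) holds 7 copies on the minus strand, among them Gm28439 (mt-Nd4), Gm28437 (mt-Co3), Gm10925 (mt-Atp6) and Gm28661 (mt-Co2), each identical to the mitochondrial gene over its aligned bases. The other on chromosome 2 (22587291 to 22590533) holds Gm13341 (mt-Co2, 95.9% identity), Gm13340 (mt-Co1, 97.6%) and Gm13339 (mt-Nd2, 96.7%). The chromosome 1 block had 6125 counts in cKO, 1556 in HT and 1852 in Ctrl, and the chromosome 2 block 4801, 1444 and 1762. Both blocks were higher in cKO, like most of the mitochondrial genes.

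Identical copies differed in how their counts compared with those of the gene. Gm10925 had 1559 counts in cKO, 302 in HT and 436 in Ctrl, or 1.21, 1.21 and 1.31 per count of mt-Atp6. Gm28661 had 1727, 422 and 436 counts, or 0.729, 0.813 and 0.711 per count of mt-Co2. Gm13341, which differs from mt-Co2 at 16 bases and by 12 bases of gaps, had 2726, 606 and 697 counts. The counting intervals of the ratios for Gm10925 and Gm28661 overlapped between the 3 libraries.

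Other identical copies did not keep one ratio. Gm28437 had 1032, 315 and 373 counts, or 0.652 per count of mt-Co3 in cKO (0.603 to 0.706), 0.679 in HT (0.588 to 0.783) and 0.836 in Ctrl (0.729 to 0.960). Gm28439, which covers 63.6% of mt-Nd4, had 301, 117 and 215 counts, or 0.00248 per count of mt-Nd4 in cKO (0.00221 to 0.00277), 0.00300 in HT (0.00251 to 0.00360) and 0.00418 in Ctrl (0.00365 to 0.00478). For both, the intervals of cKO and Ctrl did not overlap, and Gm28439 stayed far below its gene in every library. Gm10222 (mt-Nd4l) had 26, 9 and 25 counts, with overlapping intervals.

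For mt-Co1, Gm29216 and Gm13340 had other ratios between the libraries than the gene. Gm29216 had 1316 counts in cKO, 368 in HT and 348 in Ctrl, 2.91-fold and 4.02-fold higher in cKO by CPM, and Gm13340 had 1619, 795 and 1016 counts, 1.66-fold and 1.69-fold higher. mt-Co1 itself, at the same scaling, was lower than both controls. In each library the mt-Co1 count was over 100 times that of either copy. Adding the counts of both blocks to the mitochondrial rows moved their share of the total to 5.25% in cKO, 2.60% in HT and 2.83% in Ctrl.

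**Figure D5:**
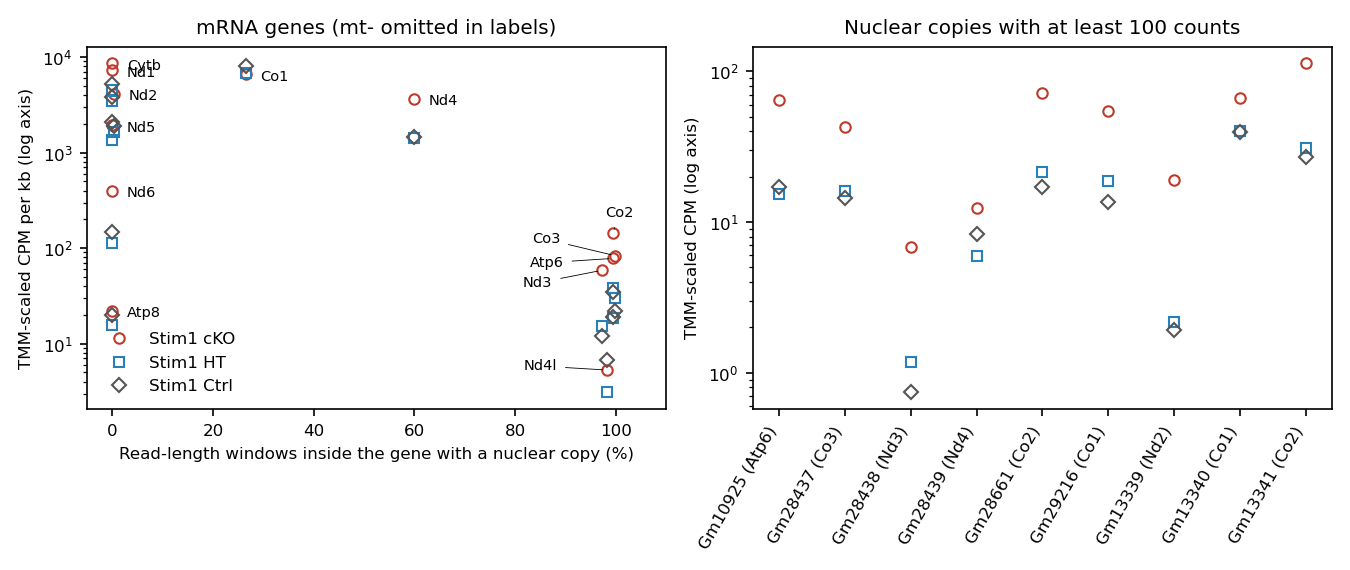
Left, points give the TMM-scaled CPM per kb (log axis) of the 13 mRNA genes in each library. They are set against the share of read-length windows inside the gene with an exact copy among annotated nuclear transcripts (%). The 5 genes above 97% all lie below 150 CPM per kb. Right, points give the TMM-scaled CPM (log axis) of the 9 nuclear copies with at least 100 counts summed, each with its mitochondrial gene in brackets, and cKO is the highest library for each.

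Nuclear genes of the same system were read too. Of 32 genes of mitochondrial transcription, RNA processing and replication, 31 were tested. Of these, 19 were lower in cKO than in both controls, against 42.1% of all genes, and 4 higher, against 43.6%. The median edgeR log2 fold change was -0.25 (0.01 with scaling by library size only). edgeR called 0 of the 31, against 0.0749% of all genes higher and 0.0% lower, and DESeq2 called 0, against 5.2% and 4.34%. Tfam, which packages mitochondrial DNA and starts its transcription, was at 25.8 CPM in cKO, 48.6 in HT and 42.1 in Ctrl (edgeR adjusted p 0.105). Polrmt, the mitochondrial RNA polymerase, was at 20.3, 24.8 and 28.6 CPM, and Elac2, which cuts the 3′ ends of tRNAs, at 18.6, 31.1 and 34.2 CPM. Tfam, Polrmt and Elac2 were each lowest in cKO, but the transcription genes as a group were mixed. Of those 9, which include Tfam and Polrmt, 4 lay below both controls (42.1% of all genes) and 2 above both (43.6%). Their median edgeR log2 fold change was 0.007.

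Nuclear subunits that join the encoded proteins lay lower still. All 38 were tested, 28 were lower in cKO than in both controls (42.1% of all genes) and 1 higher (43.6%), and the median edgeR log2 fold change was -0.71 (-0.46 with scaling by library size only), against -0.01 over all genes (0.25). edgeR called 0 of them, against 0.0% of all genes lower and 0.0749% higher, while DESeq2 called 9 lower, against 4.34%, and 0 higher, against 5.2%. Atp5b, the catalytic subunit of complex V, was at 727 CPM in cKO, 1841 in HT and 2058 in Ctrl (edgeR log2 fold change -1.42, adjusted p 0.0841). Cyc1, cytochrome c1 of complex III, was at 107, 258 and 240 CPM (edgeR log2 fold change -1.22, adjusted p 0.0671). The medians of the mitochondrially encoded mRNAs and of the nuclear subunits thus had opposite signs. The summed levels of the muscle and ameloblast markers given above were lower in cKO, with 7 of 8 muscle genes and 4 of 7 ameloblast genes below both controls. The photoreceptor markers Gnat1 and Sag were higher in cKO. The part of these marker differences in the values of the nuclear subunits was not tested.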

How the data were processed

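The data were 3 RNAseq libraries of incisor enamel organ, 1 per genotype. Per the study's methods, poly(A) RNA was prepared by a directional NEBNext protocol (the labels name a SMARTER kit), and STAR placed the trimmed paired-end reads on the mouse genome. The submitters' processing notes name FastQC, STAR and DESeq2. The authors deposited raw counts per gene symbol that were not normalized. The genome build, annotation, counting tool, strand setting and treatment of reads with several alignments are not given in the sources used here. The lowest count is 1, so genes at 0 in a library are not listed. Symbols had become dates in 25 rows, and 2 symbols were listed more than once.

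Members were the rows whose symbol starts with mt-, and class and strand came from GENCODE M21. The members and gene lists were chosen with earlier results of these data known. Other genes named were Stim1, nuclear copies with at least 100 counts summed over the libraries, and members of the lists. Stim1 cKO was tested against the grouped controls with edgeR 4.0.16 in R 4.3.3 (TMM, filterByExpr, 18702 genes kept, quasi-likelihood test, Benjamini-Hochberg adjustment, residual degrees of freedom 1, prior degrees of freedom 4.15). All 20 members passed that filter, which 1 library was enough to satisfy. mt-Tq, mt-Ts1 and mt-Tt passed it through Stim1 cKO alone. Calls needed an adjusted p under 0.01 and a fold change over 2, as in the study. DESeq2 1.42.0 was the alternative tool, and the tests were run on simulated data first. Shares have 95% Wilson intervals and folds between single libraries exact binomial intervals, which cover counting error only, since reads are not independent molecules. Copies were sought with BLAST 2.17.0 (at least 90% identity over 100 bases) and by exact windows of the read length in nuclear transcripts. The genome sequence was not used here, so windows that cross gene borders match few annotated copies. One marker gene is not reported here.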

Additional observations from a re-analysis of the deposited data

How the results depend on the processing

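No paired analysis was possible because each genotype has 1 library. With no replicate, differences between genotypes cannot be separated from differences between animals, dissections or libraries, and leaving out either control leaves no residual degrees of freedom, so that no count of calls could be made. The count of 0 members called by edgeR became 10 with DESeq2, 4 without the filter on low counts and 10 at an adjusted p under 0.05. It stayed at 0 with the other scalings, a mean of at least 50 counts and no fold change minimum. Among the alternative values for single genes, 119 kept their direction and side of the threshold, 39 that have no adjusted p kept their direction, 14 came to pass the threshold and 3 changed sign. The latter were mt-Co1 with library size only (0.10), where the median log2 fold change of all genes moved from -0.01 to 0.25, and mt-Nd4l (-0.36) and mt-Nd5 (-0.12) without HT, against 0.78 and 0.50 without Ctrl. Upper-quartile scaling moved that median to 0.12. The causes were not tested. Low counts limit the precision of the tRNA rows, each with under 100 counts in both controls.

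Values are given for cKO, then HT, then Ctrl. The share of total counts was 4.53%, 2.47% and 2.73% with mRNA rows only and the same without rRNA rows. It was 5.63%, 2.99% and 3.35% without the 20 highest other rows in the denominator, and 5.25%, 2.60% and 2.83% with nuclear copies added, a choice made after seeing the data. The rRNA share of mitochondrial counts was 12.2%, 4.29% and 2.92% per gene length and 22.3%, 9.55% and 6.31% over genes with no copied window. Without mt-Co1, also chosen after seeing the data, it was 16.4%, 7.31% and 4.93%. The mRNA share was 86.9%, 95.5% and 96.9% per gene length and 77.6%, 90.4% and 93.7% with no copied window. The tRNA share was 0.959%, 0.236% and 0.157% per gene length and 0.0852%, 0.0248% and 0.0167% with no copied window. The light-strand share was 0.516% in cKO among mRNA rows and 0.535% without rRNA rows, and 32.4%, 37.5% and 28.1% among tRNA rows. Under each of these settings cKO had the highest share of total counts, rRNA and tRNA, and it had the highest light-strand share except among tRNA rows. With windows of the read length overlapping a gene, 10 genes had a copied window, and 11, 9 and 8 had one with 75 bases, 250 bases and windows wholly inside the gene, the last added after seeing the data.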
